A study of Mus musculus with 2 samples.

Results

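The cell cycle and DNA replication genes examined here are a list of 59 genes named for their roles, with no threshold on their values, of which 58 had a probe set that the platform annotation assigns to them alone. They were read on 2 expression arrays, 1 per condition, which together cover 18093 genes. The list was split into 30 genes of the G1/S transition and of DNA replication and 29 genes of G2/M and mitosis. The 1 gene with no such probe set was Ccnb1, cyclin B1 of the second group, which left 28 there. The 58 genes had 139 probe sets, of which 17 belonged to the _x_at class that can cross-hybridize and were set aside.

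Each array came from peritoneal macrophages of C57BL/6J mice, taken 3 days after thioglycolate, an irritant that recruits macrophages to the peritoneum, had been injected. Cells of 1 group were given LPS+CPN, and cells of the other LPS+CPN+GGOH, so that LPS and CPN were common to the groups and geranylgeraniol (GGOH) was the difference. LPS is lipopolysaccharide, a component of bacterial outer membranes, GGOH is an isoprenoid alcohol that cells can use for protein prenylation, and CPN is given in the labels as an abbreviation only. The sources used here do not give doses, treatment times, the age and sex of the mice, the number of animals behind an array or any purification of the cells. The study set out to find genes whose level differs once GGOH is added. With 1 array per condition there is no replicate, and no difference below carries a test, a standard error or a p-value.

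The cell cycle runs in ordered phases. D-type cyclins with Cdk4 and Cdk6, and E-type cyclins with Cdk2, release E2F factors from the RB proteins, and E2F then drives the genes that license origins, build the replication fork and supply deoxynucleotides. Later, a MuvB complex with B-MYB and FOXM1 switches on the genes of G2 and mitosis, often through a promoter element named CHR (cell cycle genes homology region) beside CCAAT boxes. Elicited peritoneal macrophages are largely non-dividing cells, and resident and recruited macrophages can re-enter the cycle in response to growth factors.

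More of the mitotic genes than of the replication genes passed 2-fold. Of the 28 G2/M and mitosis genes on the array, 17 were at least 2-fold higher with GGOH and 0 were at least 2-fold lower. Of the 30 G1/S and replication genes, 9 were at least 2-fold higher and 1, the cyclin gene Ccne1, was at least 2-fold lower. The groups differed in level without GGOH, with median signals of 68.7 for the 28 genes and 268 for the 30. Of the genes called higher, 8 of the 17 and 6 of the 9 were above the floor, defined below, on both arrays. The part of this difference in level in the contrast between the groups was not tested. Among all 11518 genes measured on at least 1 array, 5.50% passed 2-fold on the higher side and 1.66% on the lower side. Anln (at least 14.2-fold higher), Ube2c (at least 6.59-fold) and Top2a (5.39-fold), which act in mitosis or cytokinesis, had the largest values with bounds taken at the bound. That order is set by the floor: in the signals without one, the largest log2 ratios were those of Ube2c (6.91), Ccnb2 (6.43) and Ect2 (5.28).

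The promoters of these genes are shown first, because the 2 groups differ in the elements they hold in the window around the start site. The RefSeq promoter table (build GRCm38.p6) holds 250 bases before and 50 bases after each start, and 47 of the 59 listed genes were found in it. Matches were sought on both strands, with overlaps allowed, for the E2F core (TTTGGCGC, TTTCCCGC, TTTGCCGC or TTTCGCGC), the CHR element (TTTGAA or TTCGAA) and the CCAAT box (CCAAT). A match is a run of letters, not a tested site, and the absence of a match says only that these letters are not in the window.

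A CHR element lay in the window of 18 of 23 G2/M and mitosis genes (78.3%), 5 of 24 G1/S and replication genes (20.8%) and 21.7% of all 27025 genes in the table. The E2F core had the opposite distribution, with 11 of 24 G1/S and replication genes (45.8%), 2 of 23 G2/M and mitosis genes (8.70%) and 2.60% of all genes. CCAAT boxes were in the windows of 15 of 24 (62.5%) and 19 of 23 (82.6%) genes of the groups, against 41.1% of all genes. A CHR element and a CCAAT box occurred together in 17 of 23 G2/M and mitosis genes (73.9%), 5 of 24 G1/S and replication genes (20.8%) and 9.65% of all genes. In 15 of 23 G2/M and mitosis genes (65.2%) a CHR element began within 40 bases of the start, which held for 8.33% of G1/S and replication genes and 5.20% of all genes. This distance was chosen after the positions were seen.

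For G1/S and replication, the genes shown are the 3 with the largest differences, bounds included, that hold an E2F core: Uhrf1, an epigenetic reader that recruits the maintenance DNA methyltransferase, and Mcm5 and Mcm6, subunits of the replicative helicase. They are the 220 bases before the start at chr17:56304093-56304312 on the plus strand, chr8:75109289-75109508 on the plus strand and chr1:128359706-128359925 on the minus strand. Capitals mark the E2F core and CCAAT boxes. In Mcm5 and Mcm6 a run of 12 capitals holds 2 E2F cores that overlap on opposite strands. The Uhrf1 core lies before 1 of the 2 starts the table lists for that gene.
Uhrf1: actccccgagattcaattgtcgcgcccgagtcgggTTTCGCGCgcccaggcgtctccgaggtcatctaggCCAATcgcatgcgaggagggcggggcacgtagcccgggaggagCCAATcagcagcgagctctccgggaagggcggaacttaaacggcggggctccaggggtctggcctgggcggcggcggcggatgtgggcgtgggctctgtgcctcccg
Mcm5: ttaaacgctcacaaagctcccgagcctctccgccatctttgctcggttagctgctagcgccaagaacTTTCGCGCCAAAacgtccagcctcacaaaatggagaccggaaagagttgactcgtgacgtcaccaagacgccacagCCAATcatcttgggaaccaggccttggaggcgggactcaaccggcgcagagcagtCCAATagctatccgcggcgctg
Mcm6: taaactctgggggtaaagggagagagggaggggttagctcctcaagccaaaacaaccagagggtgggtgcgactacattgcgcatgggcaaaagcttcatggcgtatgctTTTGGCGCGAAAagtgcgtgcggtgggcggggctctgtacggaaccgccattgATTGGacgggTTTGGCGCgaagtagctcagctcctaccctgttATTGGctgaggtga

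For G2/M and mitosis, the genes shown are the 3 with the largest differences, bounds included, that hold a CHR element. Cdk1 was added as a gene that holds all 3 elements. Ncapd2 of the same group also holds all 3 and is not shown. Ube2c encodes the ubiquitin-conjugating enzyme of the anaphase-promoting complex, Top2a the topoisomerase that decatenates chromosomes, and Cdk1 the kinase that drives entry into mitosis. Their 220 bases before the start are chr2:164769709-164769928 on the plus strand, chr11:99024190-99024409 on the minus strand and chr10:69352913-69353132 on the minus strand. For Anln, which encodes the cytokinesis scaffold anillin, both CHR elements follow the start, so 30 bases are given, chr9:22389165-22389194 on the minus strand, from base 13 to base 42. Capitals mark CHR elements, CCAAT boxes and, in Cdk1, the E2F core.
Ube2c: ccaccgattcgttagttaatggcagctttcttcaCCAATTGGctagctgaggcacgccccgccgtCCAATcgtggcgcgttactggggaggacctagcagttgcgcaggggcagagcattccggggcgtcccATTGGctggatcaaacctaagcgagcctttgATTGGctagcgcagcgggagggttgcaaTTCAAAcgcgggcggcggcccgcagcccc
Top2a: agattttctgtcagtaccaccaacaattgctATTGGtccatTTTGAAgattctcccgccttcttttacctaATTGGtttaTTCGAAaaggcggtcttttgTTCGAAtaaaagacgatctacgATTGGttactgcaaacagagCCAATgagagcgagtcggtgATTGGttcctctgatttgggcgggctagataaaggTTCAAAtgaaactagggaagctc
Cdk1: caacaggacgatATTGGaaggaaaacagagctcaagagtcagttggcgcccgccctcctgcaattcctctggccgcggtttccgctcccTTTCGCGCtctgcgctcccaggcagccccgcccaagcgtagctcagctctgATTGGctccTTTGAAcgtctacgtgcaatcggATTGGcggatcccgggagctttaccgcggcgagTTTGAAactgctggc
Anln: gcgctgaaaTTCAAAtTTTGAAcggccgtg

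In Ube2c the CHR element starts 29 bases before the start site, in Top2a the nearest one 23 bases before it and in Cdk1 15 bases before it, each downstream of CCAAT boxes. Ube2c and Top2a show 5 CCAAT boxes each within these bases, and in Ube2c 2 of them overlap. Among measured G2/M and mitosis genes, 14 of 16 with a CHR element were at least 2-fold higher (median log2 ratio 1.55), as were 2 of 4 without one (median 1.12). Among measured G1/S and replication genes, 3 of 10 with an E2F core were at least 2-fold higher (median 0.54), as were 4 of 12 without one (median 0.04). Over all measured genes 5.50% were at least 2-fold higher. Of the genes with a CHR element called higher, Anln, Aurka, Bub1, Ccnb2, Cenpf, Ect2, Plk1, Prc1 and Ube2c were above the floor with GGOH only. Such genes can only be higher, whereas the measured mitotic genes without a CHR element were all above the floor on both arrays. The 2 shares are therefore not on equal terms. The subsets are small, and these are descriptions of single arrays.

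**Figure D1:**
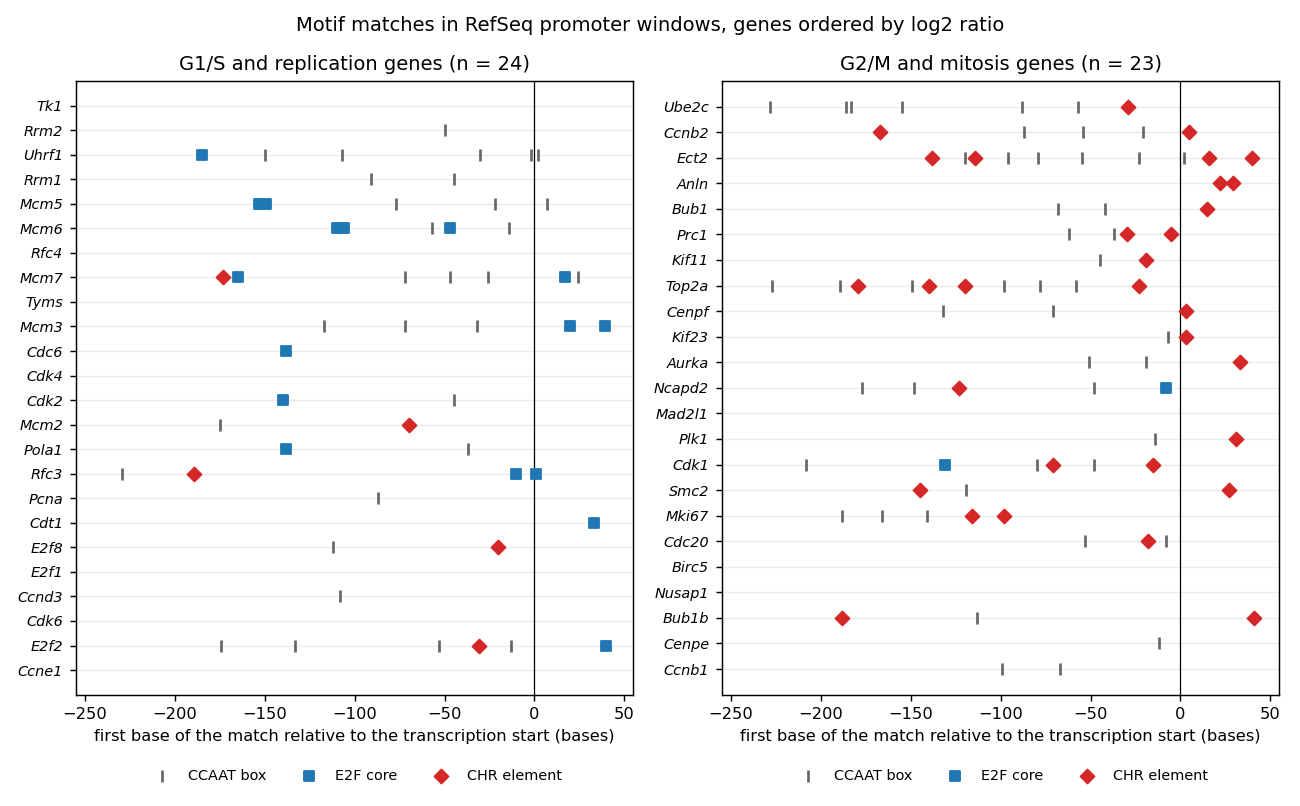
Positions of motif matches in the promoter windows of 24 G1/S and replication genes and 23 G2/M and mitosis genes. Genes are ordered by log2 ratio without a floor, highest at the top, with matches of all listed starts of a gene on 1 line. Ccnb1, which has no ratio, is placed at the bottom of the right panel. Horizontal axes give the first base of a match relative to the transcription start. CHR elements (diamonds) gather near the start in the right panel, where 15 of 23 genes have one within 40 bases, and E2F cores (squares) lie mostly in the left panel.

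Values are deposited signal intensities of a gene's brightest probe set, and a floor was set at 59.9, the median of all non-control signals. A gene at the floor on 1 array has only a bound, written as "at least", and a gene that reached the floor on neither array counts as not measured. The log2 ratio sets the array with GGOH over the array without it. Log2 ratios of probe sets of the same gene, taken above the floor on both arrays, had a pooled SD of 0.45 over all genes. The SD was 0.46 over the 15 members with several such probe sets. Probe sets of a gene share the same hybridizations, so this SD holds no variation between animals, cultures or arrays. It is a spread within the arrays, not the error of a ratio between conditions, and it does not cover bounds. Of the 58 genes, 38 were above the floor on both arrays (as were 9909 of all 18093 genes), 14 with GGOH only, 1 without GGOH only and 5 on neither. Over all measured genes, 8.52% were above the floor with GGOH only and 5.45% without GGOH only. A gene that is above the floor through 1 array alone can only differ in that direction, so the counts are also given without any floor.

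Both arrays had been brought to a common level before deposition, with a mean signal of 500.004 over the central 96% of probe sets on each. All 14 macrophage markers on the array were above the floor in both conditions, and their median log2 ratio was -0.24. They went both ways: 5 of the 14 had ratios above 0, and Itgam alone passed 2-fold (312 and 646, 2.07-fold higher). Fibroblast markers were above the floor for 5 of 13 genes without GGOH and 11 of 13 with it, and their summed signal was 1524 and 29779.5. Mesothelial markers were above it for 2 of 10 and 9 of 10 genes, with summed signals of 381 and 2889.9. Neutrophil markers were above it for 3 of 7 and 1 of 7 genes, with summed signals of 4554 and 2413, most of which was S100a8 (4282 and 2216). Elane and Ngp were above it without GGOH only, with bounds of 1.13-fold and 1.26-fold lower. S100a9 was below it on both arrays, at 3.49 and 2.59. Endothelial markers were above it for 3 of 6 genes on each array, with Esam 3.22-fold higher and Vwf 2.10-fold lower with GGOH. Of 5 B cell markers 1 was above it, Cd22, at 688 and 829. None of 9 T and NK cell, 6 mast cell or 3 erythroid markers was above the floor on either array. The ratio of 3' to 5' signal of the Actb control probe sets was 2.44 without GGOH and 1.24 with it, and that of Gapdh 1.98 and 0.956. The fibroblast and mesothelial markers, S100a8 and this ratio therefore differed between the same arrays as the cell cycle genes. Their part in the differences below was not tested. In RNA from a whole culture, fewer cells of a type and less RNA per cell cannot be told apart.

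**Figure D2:**
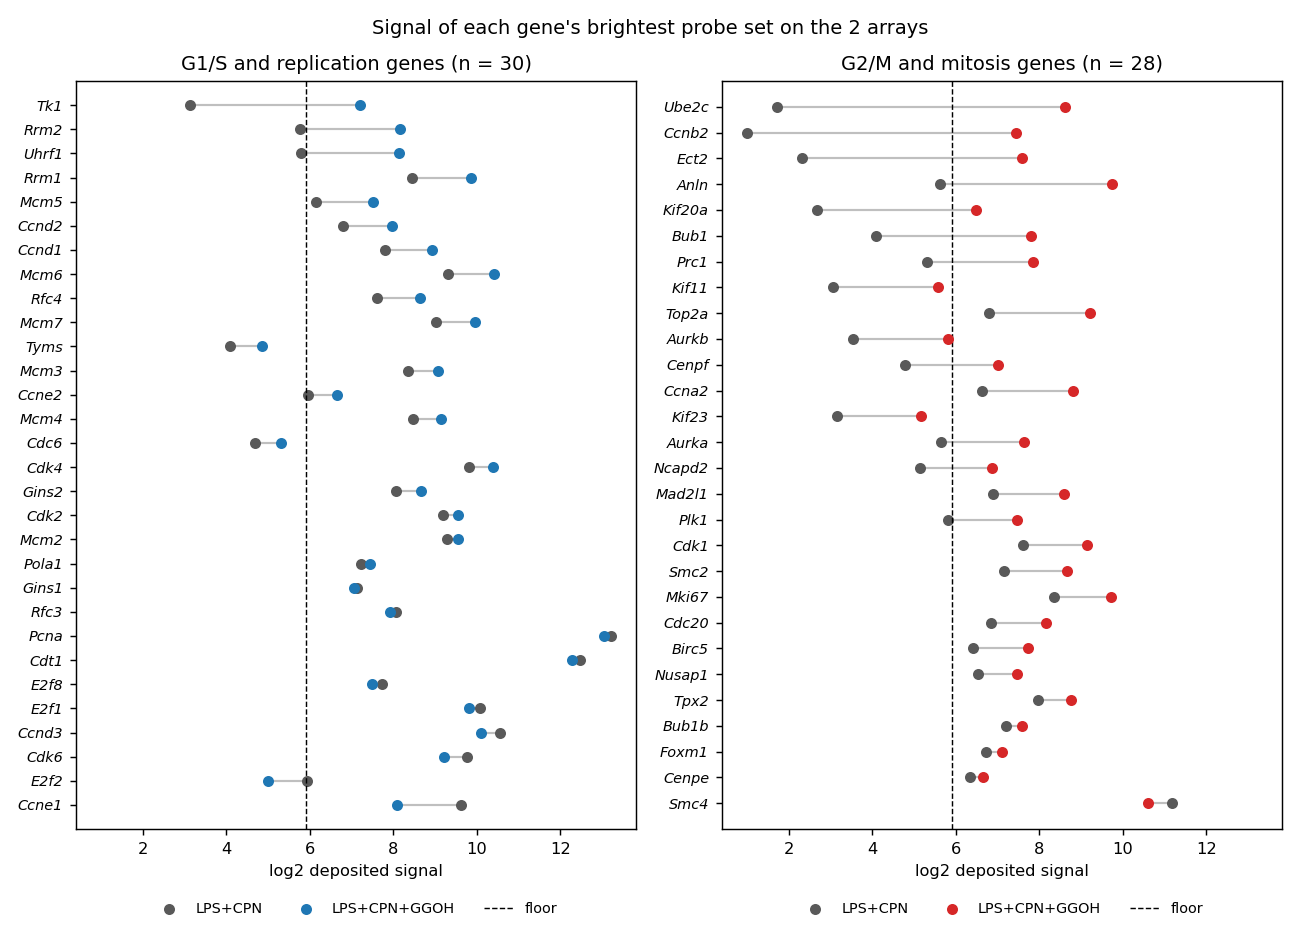
Deposited signals of all 58 genes on the 2 arrays, as log2 values of the brightest probe set, with grey points for LPS+CPN, coloured points for LPS+CPN+GGOH and a dashed line at the floor. In the G2/M and mitosis panel the coloured point lies to the right of the grey point for 27 of 28 genes, and in the G1/S and replication panel for 20 of 30. Over all genes this held for 47.9%.

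The D-type cyclins, which pair with Cdk4 and Cdk6 at the start of G1, did not move as a family. Ccnd1 had a signal of 224 without GGOH and 485 with it, 2.17-fold higher. Ccnd2 had signals of 111 and 252, 2.27-fold higher. Ccnd3 had signals of 1496 and 1099, a log2 ratio of -0.45. Every measured probe set of Ccnd1 (3, log2 ratios from 1.12 to 2.29) and of Ccnd2 (4, from 1.18 to 1.85) was at least 2-fold higher with GGOH, with the highest value of Ccnd2 a bound. The other measured probe set of Ccnd3 was at 71.8 and 19.8, which bounds it at 1.2-fold lower or more. The brightest probe set of Ccnd1 fell below 2-fold when each array was divided by its median, with quantile normalization or with a pseudocount, and that of Ccnd2 after quantile normalization or with a pseudocount.

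The E-type cyclins, partners of Cdk2 at the entry into S phase, differed from each other as well. Ccne1 had a signal of 792 without GGOH and 273 with it, 2.90-fold lower, and was the only 1 of the 58 genes at least 2-fold lower; this call held under all 11 other settings of scaling, floor and probe set choice. The _x_at probe set of Ccne1, not used for the gene's value, had signals of 1208 and 447. Ccne2, close to the floor without GGOH, had signals of 61.6 and 101, a log2 ratio of 0.71.

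None of the 3 G1/S kinases passed 2-fold. Cdk4 had signals of 891 and 1335 (log2 ratio 0.58), and Cdk2 of 585 and 748 (0.35). Cdk6 had signals of 871 and 589 (-0.56), and its 3 probe sets ranged from -0.56 to 0.31, so that even the sign was not shared. The E2F factors also stayed under 2-fold. The activator E2f1 had signals of 1083 and 894 (-0.28) and the repressor E2f8, a target of the activators, had signals of 213 and 178 (-0.26). E2f2 was at 60.7 without GGOH, just above the floor, and at 32.1 with it, which bounds it at 1.01-fold lower or more.

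Origins are licensed when Cdc6 and Cdt1 load the Mcm2 to Mcm7 helicase. Of the helicase subunits, Mcm5 (signals of 70.5 and 181, 2.57-fold) and Mcm6 (632 and 1355, 2.14-fold) were at least 2-fold higher, Mcm6 not with the arrays divided by their medians and Mcm5 not with a pseudocount. The others all had ratios above 0. Mcm7 had signals of 517 and 994 (log2 ratio 0.94, with its 3 probe sets from 0.94 to 1.03), Mcm3 of 327 and 541 (0.73), Mcm4 of 357 and 568 (0.67) and Mcm2 of 620 and 743 (0.26, with its other measured probe set at 0.68). For the loaders no direction could be read. Cdt1 had signals of 5661 and 5005 (-0.18), with its other measured probe set at 0.22, and Cdc6 was below the floor on both arrays, at 25.8 and 39.3.

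At the fork, the sliding clamp gene Pcna had signals of 9491 and 8411, a log2 ratio of -0.17. The clamp loader subunits Rfc3 (267 and 244) and Rfc4 (194 and 399) had log2 ratios of -0.13 and 1.04. Rfc4 was the member nearest above 2-fold, its other probe set was at 0.20, and it fell below 2-fold when each array was divided by its median, with quantile normalization or lowess, with a pseudocount or as the median over probe sets. The GINS subunits of the helicase complex, Gins1 (140 and 133) and Gins2 (269 and 402), had log2 ratios of -0.07 and 0.58, with the other measured probe set of Gins2 at 1.30 (92.2 and 226), and Pola1, the catalytic subunit of the priming polymerase, one of 0.20. Uhrf1, whose promoter is given above, was below the floor at 55.5 without GGOH and at 283 with it, at least 4.72-fold higher.

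Of the 4 genes of deoxynucleotide supply, 3 were at least 2-fold higher, against 5.50% of all measured genes, and 1 was not measured. Rrm2 and Tk1 were above the floor with GGOH only, so they could only be higher. Rrm1, the large subunit of ribonucleotide reductase, had signals of 350 and 927, 2.65-fold higher, and its other measured probe set had a log2 ratio of 1.30. Rrm2, the small subunit that is made in S phase, had signals of 53.9 and 285, at least 4.75-fold higher. Its other used probe set was at 9.33 and 92.3, a bound of 1.54-fold or more. The thymidine kinase gene Tk1 had signals of 8.79 and 148, at least 2.47-fold higher, while thymidylate synthase (Tyms) was below the floor on both arrays, at 17.1 and 29.1. In the signals without a floor all 4 had ratios above 0 (47.9% of all genes had).

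As a group, the 28 measured G1/S and replication genes had a median log2 ratio of 0.58, and the 24 above the floor on both arrays one of 0.47, against -0.01 and -0.03 for all genes. Of those 24, 6 were at least 2-fold higher and 1 lower, against 3.31% and 1.52% of all genes above the floor on both arrays. With no floor, 20 of the 30 had a ratio above 0 (47.9% of all 18093 genes had) and 9 were at least 2-fold higher (14.1% of all genes) and 1 lower (11.9%), with a median of 0.60.

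In the mitotic group, the cyclins and Cdk1 were higher together. Cdk1 had signals of 195 and 565, 2.89-fold higher. Cyclin A2 (Ccna2), which acts in S phase and G2, had signals of 99.4 and 451, 4.53-fold higher, and its other probe set had signals of 9.26 and 331. Cyclin B2 (Ccnb2), a mitotic partner of Cdk1, had signals of 2.0 and 172, at least 2.87-fold higher. Foxm1, the transcription factor of this gene group, was not among them, with signals of 105 and 137 and a log2 ratio of 0.38. The partners of the anaphase-promoting complex, which ends mitosis by degrading cyclins, were higher: its activator Cdc20 had signals of 115 and 284 (2.47-fold), and Ube2c had signals of 3.28 and 395 (at least 6.59-fold). With a pseudocount Cdc20 fell below 2-fold.

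Genes of chromosome structure included Top2a, with signals of 110.4 and 595, and the proliferation marker Mki67, which coats mitotic chromosomes, with signals of 327 and 836 (2.56-fold higher). Smc2 and Smc4 encode the SMC subunits of condensin. The brightest probe set of Smc2 had signals of 142 and 402, 2.84-fold higher, and 2 others were below the floor without GGOH, at 27.8 and 68.9 (a bound of 1.15-fold higher) and at 46.8 and 89.7 (a bound of 1.5-fold). With the median over probe sets, bounds included, Smc2 was under 2-fold. Smc4 was the only 1 of the 28 genes whose brightest probe set was lower with GGOH, at 2318 and 1552 (-0.58). Its other 2 probe sets were higher, at 1374 and 1934 (0.49) and at 367 and 996 (1.44), so the readings of this gene disagreed beyond the usual spread of probe sets. The condensin subunit gene Ncapd2 had signals of 35.5 and 117, a bound of 1.96-fold.

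The spindle checkpoint delays anaphase until chromosomes are attached. Its genes Mad2l1 (119 and 388, 3.26-fold) and Bub1 (17.1 and 223, at least 3.72-fold) were higher, and Bub1b (147 and 192) had a log2 ratio of 0.39. Of the mitotic kinases, Aurka had signals of 49.8 and 197 (at least 3.28-fold higher) and Plk1 of 56.3 and 177 (at least 2.96-fold). Aurkb stayed below the floor on both arrays, at 11.6 and 55.8, but its partner in the chromosomal passenger complex, Birc5 (survivin), had signals of 85.5 and 210.1, 2.46-fold higher but under 2-fold with a pseudocount. Tpx2, the activator of Aurora A, had signals of 252 and 430 (0.77), with its other measured probe set at 61.6 and 58.2, above the floor without GGOH only.

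Of the 7 genes of spindle motors, kinetochores and spindle microtubules, 5 were below the floor without GGOH. Prc1, which bundles microtubules of the central spindle, had signals of 39.6 and 232, at least 3.87-fold higher, and its other probe set had signals of 23.2 and 243. The kinetochore protein Cenpf was at 27.5 and 129, at least 2.16-fold higher, a call lost after quantile normalization. Nusap1 had signals of 91.6 and 176 (0.94), the kinesin Cenpe of 81.2 and 101 (0.32), and the kinesin Kif20a of 6.39 and 89.3, a bound of 1.49-fold. Kif11 (8.37 and 47.7) and Kif23 (8.83 and 36.0) were not measured by their brightest probe sets, and 2 further probe sets of Kif11 pointed in opposite directions, at 5.65 and 68.6 and at 61.6 and 3.85. In cytokinesis, Anln had signals of 48.9 and 852, and Ect2, the exchange factor that activates RhoA at the cleavage furrow, had signals of 4.97 and 193, at least 3.23-fold higher. Other used probe sets of Anln, at 22.9 and 38.5, were below the floor.

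The 25 measured G2/M and mitosis genes had a median log2 ratio of 1.5, and the 14 above the floor on both arrays one of 1.30. Of those 14, 8 were at least 2-fold higher, against 3.31% of all genes above the floor on both arrays. With no floor, 27 of the 28 had a ratio above 0 (47.9% of all genes had) and 22 were at least 2-fold higher (14.1% of all genes), with a median of 1.85. The median of the mitotic group was 0.92 above that of the G1/S and replication group on the log2 scale, 0.83 above it among genes above the floor on both arrays and 1.26 with no floor. With the floor raised to the 75th percentile of signals (376), 17 G1/S and 10 G2/M genes were measured. Of each group 2 were at least 2-fold higher (1.79% of all genes measured at that floor), and the medians differed by -0.03. Ratios that cross this floor are reduced by it, and 9 of the 10 G2/M genes and 6 of the 17 G1/S genes reached it with GGOH only. In the signals of the same genes without a floor, an alternative added after the data were seen, the medians were 1.62 and 0.58, 1.04 apart, and 8 G2/M and 4 G1/S genes were at least 2-fold higher (3.44% of all genes that reach this signal). Because most of these G2/M genes were kept through the array where they were high, these values give no support of their own. Of the 26 genes called higher, Anln, Mki67, Mcm6 and Rrm1 still passed 2-fold at that floor, 14 were not measured, and 8 had ratios or bounds under 2-fold (Ccna2, Ccnd1, Cdk1, Mad2l1, Rfc4, Smc2, Top2a and Ube2c).

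**Figure D3:**
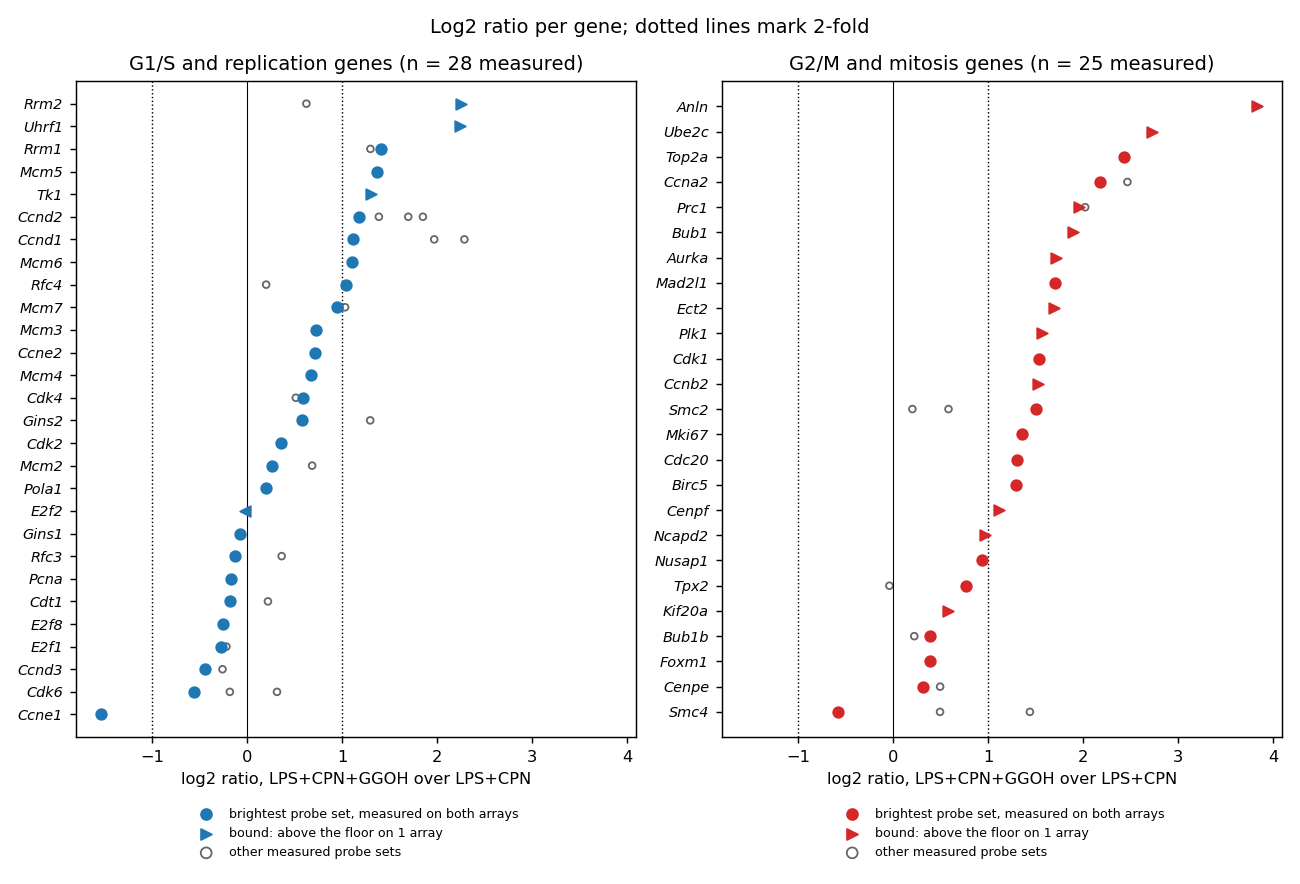
Log2 ratios of the 53 measured genes, with filled symbols for the brightest probe set (triangles where only 1 array was above the floor) and open circles for other measured probe sets. Ratios of G2/M and mitosis genes run from -0.58 to 3.83 and those of G1/S and replication genes from -1.54 to 2.25.

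**Figure D4:**
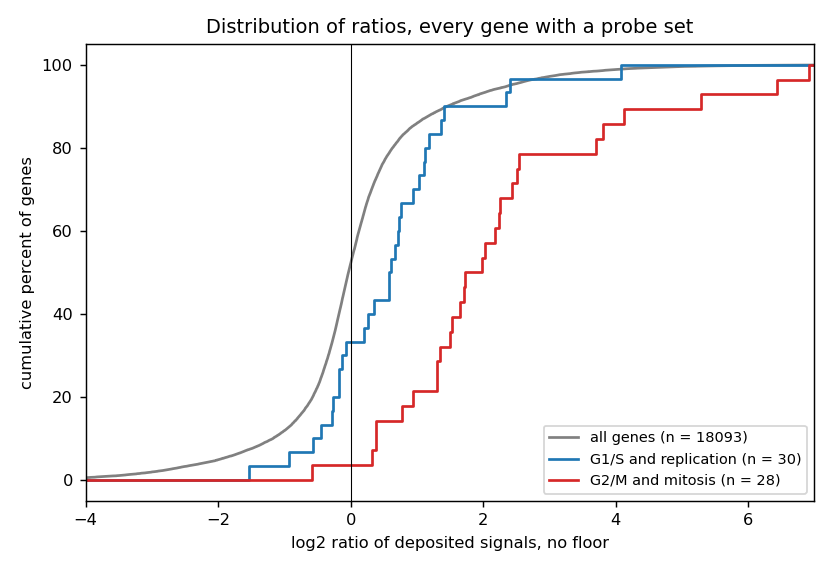
Cumulative percent of genes by log2 ratio of deposited signals with no floor, for all 18093 genes and for the groups of 30 and 28 genes. The G2/M and mitosis curve lies to the right, with a median of 1.85, the G1/S and replication curve between it and all genes, with a median of 0.60; the horizontal axis starts at -4 and ends at 7.

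Probe sets of a gene gave a partial check of these values. Of 84 measured probe sets of the 58 genes, 37 were at least 2-fold higher and 1 was lower to that extent, against 6.28% of all measured probe sets at least 2-fold higher. Of 23 genes with several measured probe sets, 6 had ratios or bounds of opposite sign (Cdk6, Cdt1, Kif11, Rfc3, Smc4 and Tpx2), and none of these was called higher or lower. All 8 genes called higher that had several measured probe sets had ratios above 0 in all of them, and 5 of the 8 were at least 2-fold higher in each. A probe set at the floor without GGOH can only be higher or drop out, so part of this agreement is built in.

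Further genes of the same processes were read from lists written for this comparison. The lists were chosen with earlier results of these data known, so they are not an independent check. Among 46 other mitosis genes on the array, 13 were at least 2-fold higher (30.2% of those measured, against 5.50% of all genes) and 0 lower to that extent. The median log2 ratio was 0.59 over 43 measured genes, of which 20 were above the floor with GGOH only. Of the 23 above the floor on both arrays, 3 were at least 2-fold higher, against 3.31% of all such genes, with a median of 0.35. The other genes called higher were above the floor with GGOH only, where a ratio can only be higher. The CDK-binding subunit Cks1b had signals of 324 and 2152 (6.64-fold higher), the spindle protein gene Ckap2 of 22.2 and 335 (at least 5.59-fold), the abscission gene Cep55 of 42.8 and 315 (at least 5.25-fold) and the mitotic kinase Pbk of 68.5 and 332 (4.85-fold). Without a floor, 40 of these 46 genes had a ratio above 0 (47.9% of all genes had) and their median was 1.38.

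Other origin, fork and nucleotide genes moved less. Of 37 on the array 3 were at least 2-fold higher and 0 lower to that extent, and the median of 36 measured was 0.11. These 3 are 8.33% of the measured genes of the list, near the 5.50% of all measured genes. The 3 were Dut, the dUTPase that keeps uracil out of DNA (84.7 and 363, 4.29-fold), the origin-firing kinase Cdc7 (59.1 and 194, at least 3.24-fold) and the helicase cofactor Cdc45 (47.1 and 137, at least 2.29-fold, but under 2-fold with a pseudocount or as the median over probe sets). The polymerase gene Pole had a bound of 1.78-fold higher.

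Regulators upstream of these programmes stayed mostly under 2-fold, and so did most measured genes. The shares past that limit were 5.50% (higher) and 1.66% (lower) when every measured gene was counted. Counts in the short lists of RB family and CDK inhibitor genes therefore do not set these regulators apart. Of 16 genes of the RB family, other E2F and DP factors and MuvB, 0 passed 2-fold in either direction, and the median of 15 measured was 0.16; Tfdp1, the usual partner of E2F, had signals of 454 and 823 (0.86), Tfdp2 a log2 ratio of 0.76, the RB relative Rbl1 one of -0.67 and E2f4 one of 0.62. Of 8 CDK inhibitors, Cdkn2b alone passed 2-fold, on the higher side (34.8 and 152, at least 2.54-fold), with a median of 0.10 over 7 measured. Cdkn1a, which encodes p21, had signals of 11577 and 6094, a log2 ratio of -0.93 that passed 2-fold lower when each array was divided by its median, and Cdkn2d (-0.50) and Cdkn3 (a bound of 1.32-fold higher) were also under 2-fold. Of 23 CDC25, WEE1, checkpoint and anaphase-promoting complex genes 2 were at least 2-fold higher, the inhibitor of that complex Fbxo5 (79.4 and 188, 2.37-fold) and the Cdk1-inhibitory kinase Pkmyt1 (121 and 259, 2.14-fold), with 0 lower and a median of 0.08 over 22 measured. That share, 9.09% of those measured, is also near the 5.50% of all measured genes. Neither passed with a pseudocount, and Pkmyt1 also not with arrays divided by their medians, quantile normalization or lowess. Chek1 had a bound of 1.81-fold higher and Atm a log2 ratio of 0.63.

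**Figure D5:**
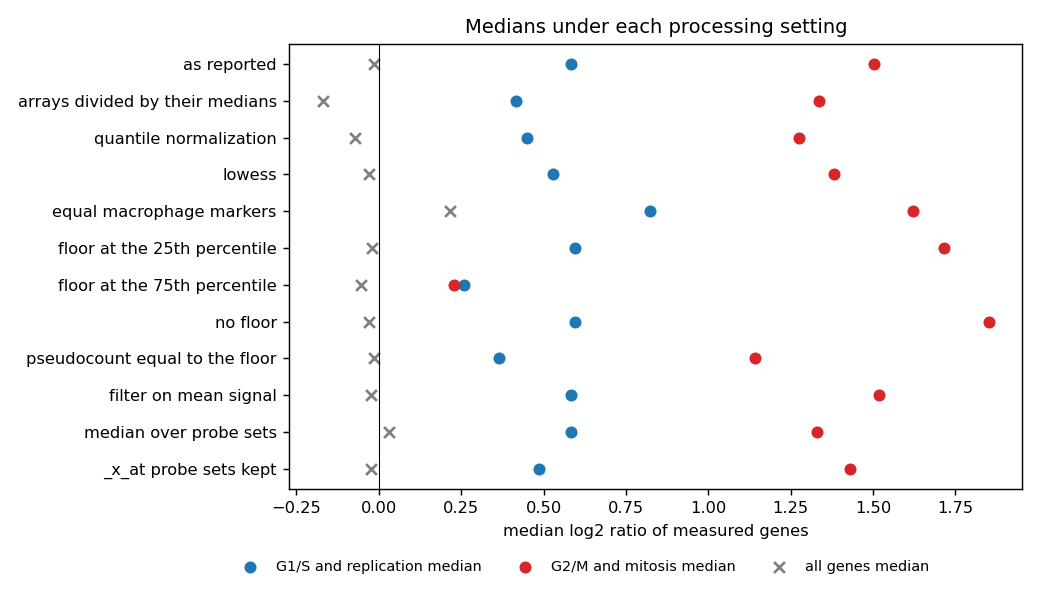
Median log2 ratio of the measured G1/S and replication genes, the measured G2/M and mitosis genes and all measured genes, as reported and under 11 other settings. The group medians stay to the right of the median of all genes in each setting, and the distance between the groups closes only with the floor at the 75th percentile.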

How the data were processed

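The authors deposited linear signal intensities, 1 value for each of 45101 probe sets on each array. Per the submitters' processing notes, these were made with MAS5; the sources used here give neither its version nor its scaling target. Names came from the platform annotation, which lists 1 gene symbol for 34945 of 45037 probe sets that are not controls, and _x_at probe sets were left out of gene values. A gene was read from its brightest probe set by mean log2 signal. The floor was the 50th percentile of the pooled signals of both arrays without controls, and calls were made at 2-fold, bounds included. There is 1 array per group, so nothing was tested, and precision is limited by that number. The SD between probe sets was taken over 4166 genes with 10774 probe sets.

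All 58 genes on the array are accounted for. Full values are given for genes at least 2-fold apart and for the G1/S cyclins, their kinases, Cdk1, E2f1, Pcna and Mki67, and up to 4 genes are named from each other list. Cdk1 was placed with the mitotic genes. No value enters the rule for the members, but the members, lists and settings were chosen with earlier results of these data known. Other settings were 4 scalings (array medians, quantile, lowess with a span of 0.4, and macrophage markers set to a median log2 ratio of 0), floors at the 25th and 75th percentiles, no floor, a pseudocount equal to the floor, a filter on mean signal, the median over probe sets, and _x_at probe sets kept. Computation used Python 3.11.15 with pandas 2.3.3 and statsmodels 0.14.6, and the steps were tested on simulated data. Changes were planted there only in genes well above the floor, with noise smaller than the SD between probe sets. The simulation therefore did not test the recovery of changes given as bounds at the floor. Promoter sequences are from RefSeq, build GRCm38.p6.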

Additional observations from a re-analysis of the deposited data

How the results depend on the processing

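With the floor at the 75th percentile, 27 of the 58 cell cycle genes were measured, and the results changed most. The number at least 2-fold higher was then 4 in place of 26 (2 G1/S and replication genes, 2 G2/M and mitosis genes). Over all measured genes the share was 1.79% in place of 5.50%. The median log2 ratio was 0.26 over all measured cell cycle genes and 0.23 over the mitotic ones, and the mitotic median minus the G1/S median was -0.032. That floor leaves fewer genes to be measured and reduces ratios that cross it. The same 27 genes, taken without a floor after the data were seen, gave 12 at least 2-fold higher (4 and 8). The share was 3.44% over all genes that reach this signal, and the group medians differed by 1.04. Of the 10 G2/M genes, 9 were kept through the array with GGOH, where they were high, so these values give no support of their own. A pseudocount equal to the floor left 5 G1/S and replication genes at least 2-fold higher, and 3.18% of all genes. Under the remaining settings the count of genes higher stayed between 22 and 31, and the mitotic median minus the G1/S median between 0.75 and 1.26. The share of all measured genes at least 2-fold higher was not steady over these settings, from 4.36% with quantile normalization to 14.1% with no floor. With Cdk1 counted among the G1/S genes the difference between the group medians was 0.85. Dividing the arrays by their medians shifted the median of all genes by -0.16, and equal macrophage markers shifted it by 0.23; the G1/S median was then 0.42 and 0.82, and the mitotic median 1.34 and 1.62. Under equal macrophage markers Mcm7, Ncapd2, Nusap1 and Tpx2 also passed 2-fold. Single low signals cannot be told from background, and the absence of replicates limits every value. No paired analysis was possible because each condition has 1 array.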

Other observations

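Some _x_at probe sets of the cell cycle genes, which can cross-hybridize and entered no gene value, had clear signals. That of Rrm2 had a signal of 138 without GGOH and 708 with it, that of Mcm5 179 and 534, and 1 of the 2 of Cdc20 40.4 and 487. Aurkb, below the floor by its other probe set, had an _x_at signal of 27.2 without GGOH and 127 with it. The _x_at probe set of E2f1 had signals of 68.1 and 29.5.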
